A study of Homo sapiens with 4 samples.

Results

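The genes described here are 8 genes of the NFkB pathway: the subunits NFKB1, NFKB2, RELA and RELB, the feedback inhibitors NFKBIA and TNFAIP3, and the chemokine genes CXCL8 and CXCL3. They were chosen by name, with presence in the gene table and in the m6A peak lists as a condition. All 8 had a row among the 14416 genes of the gene table. The control list held a peak in 6 of the 8 and the treated list a peak in 6, with 4 genes in both lists, so the genes that the lists share are fewer than the genes named. N6-methyladenosine (m6A) is a methyl mark on adenosines inside mRNA, mapped here by meRIP-seq, in which RNA fragments pulled down by an m6A antibody are sequenced. OMM2.3 cells, an established human uveal melanoma line labelled wt, received meclofenamic acid (group MA) or the solvent DMSO (control group NC) for 24 h. This drug is an anti-inflammatory cyclooxygenase blocker that is also known to inhibit FTO, an enzyme that removes m6A. Each condition had 1 input library of fragmented poly(A) RNA, which gives transcript levels, and 1 library of RNA bound to m6A antibody beads (RIP), which gives the peaks. There were no replicates, so no test between conditions was possible and every difference describes these 4 libraries.

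NFkB is a family of dimeric transcription factors. NFKB1 and NFKB2 encode the precursors of p50 and p52, which pair with RELA, RELB or REL. In resting cells the inhibitor IkBalpha, the product of NFKBIA, holds the dimers in the cytoplasm, and its degradation after phosphorylation by the IkB kinase frees them to enter the nucleus. NFKBIA and TNFAIP3 are themselves NFkB targets and close a negative feedback loop: IkBalpha binds the dimers again, and A20, the product of TNFAIP3, edits ubiquitin chains on upstream signalling proteins. CXCL8 (interleukin 8) and CXCL3 encode chemokines that attract neutrophils through the receptor CXCR2 and are classical targets of the pathway. Messages of this kind are often short-lived, and m6A is known as one of the marks that readers can use to speed mRNA decay.

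The DNA before the start sites is shown because NFkB dimers bind kappaB sites in the promoters of their targets. RefSeq (GRCh38.p14) gives 250 bases upstream of the start for 7 of the 8 genes, in 11 windows. The 5 windows printed here belong to the 4 genes whose input level was higher with MA and to NFKB1, whose level was lower. Each of these holds a match, and some windows not printed hold none. Capitals mark letters that match the kappaB consensus on either strand or the shorter form GGANTTTCC on either strand, and matches may overlap. The shorter form was added with the CXCL8 window in view.
NFKBIA, chr14:35404750-35404999, minus strand: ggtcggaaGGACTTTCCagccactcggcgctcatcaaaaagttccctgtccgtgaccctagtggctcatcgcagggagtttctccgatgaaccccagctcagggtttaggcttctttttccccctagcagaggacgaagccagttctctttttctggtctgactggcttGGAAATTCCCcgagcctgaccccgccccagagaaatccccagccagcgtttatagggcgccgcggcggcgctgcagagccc
TNFAIP3, chr6:137867009-137867258, plus strand: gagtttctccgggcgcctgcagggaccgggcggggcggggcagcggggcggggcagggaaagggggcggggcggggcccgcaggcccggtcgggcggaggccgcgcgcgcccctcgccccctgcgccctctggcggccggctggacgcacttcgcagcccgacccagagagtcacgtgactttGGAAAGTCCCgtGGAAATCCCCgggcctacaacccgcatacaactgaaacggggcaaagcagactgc
CXCL8, chr4:73740319-73740568, plus strand: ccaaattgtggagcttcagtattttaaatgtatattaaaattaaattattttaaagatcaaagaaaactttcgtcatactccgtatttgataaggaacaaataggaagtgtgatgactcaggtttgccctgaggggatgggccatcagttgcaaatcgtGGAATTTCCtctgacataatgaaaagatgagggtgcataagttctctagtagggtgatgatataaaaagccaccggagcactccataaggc
CXCL3, chr4:74038690-74038939, minus strand: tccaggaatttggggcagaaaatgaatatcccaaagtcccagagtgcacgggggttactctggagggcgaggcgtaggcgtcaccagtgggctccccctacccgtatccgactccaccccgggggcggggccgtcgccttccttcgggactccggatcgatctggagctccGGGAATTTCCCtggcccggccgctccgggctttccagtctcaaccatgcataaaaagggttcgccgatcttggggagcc
NFKB1, chr4:102501109-102501358, plus strand: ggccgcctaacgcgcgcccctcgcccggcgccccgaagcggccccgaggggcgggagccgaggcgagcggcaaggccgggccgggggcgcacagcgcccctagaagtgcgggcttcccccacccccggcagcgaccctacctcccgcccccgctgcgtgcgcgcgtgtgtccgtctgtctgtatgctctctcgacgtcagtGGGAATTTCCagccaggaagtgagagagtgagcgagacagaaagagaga
A match of either form stood in 7 of the 11 windows and in 6 of the 7 genes. The kappaB consensus itself stood in 6 of the 11 windows. Among all 35116 RefSeq windows of this length, 9.96% held the kappaB consensus, 1.45% held GGANTTTCC and 10.6% held either. CXCL8 had only the shorter form, which begins 91 bases before the start. In CXCL3 the first match begins 79 bases before it, and in the printed window of NFKB1 49 bases before it, while the other NFKB1 window held none. NFKBIA had matches that begin 242 and 81 bases before the start, and TNFAIP3 had matches at 67 and 55 bases. NFKB2 had matches in 2 of its 3 windows. Neither of the RELA windows held these letters, which says nothing about binding elsewhere. The genes were named as pathway members and known targets, so these matches describe their promoters and are no result of the drug comparison.

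The input totals behind the FPKM scale, recovered from the gene values, were 37041597 for NC and 41630895 for MA. All 7 melanocyte markers examined were expressed, from 55.9 FPKM (MITF) to 4027 FPKM (PMEL) in NC, so both inputs carry the lineage of the label. Their summed level was 7307 FPKM in NC and 3172 in MA, and 4 of the 7 were lower by 2-fold with MA; the part of this shift in the NFkB values was not tested. FPKM are fragments scaled to gene length and to the library total. Of 30 markers of immune cells, fibroblasts, endothelium and epithelium, 19 were in the gene table and 2 reached 1 FPKM in either input, CD68 and LUM. LUM, a fibroblast gene, was at 4.96 FPKM in NC and 12.03 in MA, a log2 difference of 1.13. That is the direction of NFKBIA, TNFAIP3, CXCL8 and CXCL3, and the part of LUM in their values was not tested. The other fibroblast markers with a value were under 1 FPKM in both inputs. COL1A1 was at 0.082 FPKM in NC and 0.106 in MA, DCN at 0.015 and 0.0034, and PDGFRB at 0.042 and 0.038. Over the 10564 genes that reached 1 FPKM in either input (called tested genes below), 10.3% had a level at least 2-fold higher with MA and 2.98% a level at least 2-fold lower. Here 2-fold is on the scale log2((MA FPKM + 1)/(NC FPKM + 1)), called the log2 difference, which understates the change of low genes. The counts were 1087 higher and 315 lower, or 739 and 438 once the MA values were rescaled to a median difference of 0. The median tested gene had a log2 difference of 0.11.

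Of the 8 genes, the subunits were level or lower with MA, and NFKBIA, TNFAIP3, CXCL8 and CXCL3 were higher. Only CXCL8 reached 2-fold, at a log2 difference of 1.00, and it stayed below 2-fold after rescaling to a median difference of 0 (0.92) and with a pseudocount of 5 (0.31). CXCL3 passed 2-fold with a pseudocount of 0.1 (1.43) and after rescaling to TPM (1.11). None of the 8 was lower by 2-fold under any of the settings tried. A count of 1 in 8 is near the 10.3% of all tested genes. The log2 differences of the 8 ran from -0.60 to 1.00 with a median of 0.07, against 0.11 over all tested genes. In bulk RNA of this kind, fewer cells that express a gene and less RNA per cell cannot be told apart.

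Counting error alone can be set against each difference, because the FPKM values resolve to whole reads. The reads given here are the smallest whole numbers that fit, and each ratio has an exact 95% binomial interval made from them. They cover counting error only and say nothing of the spread between cultures. Reads copied by PCR and not marked by molecular identifiers also make them too narrow. Where the true reads are a whole multiple of those given, the interval is too wide instead. On this measure the ratio of MA to NC was above 1 for 4 of the 8 genes and below 1 for 3. Over 10431 tested genes with recovered reads, the interval lay above 1 for 50.3% and below 1 for 36.5%, so an interval that leaves out 1 is the usual case at this depth.

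**Figure D1:**
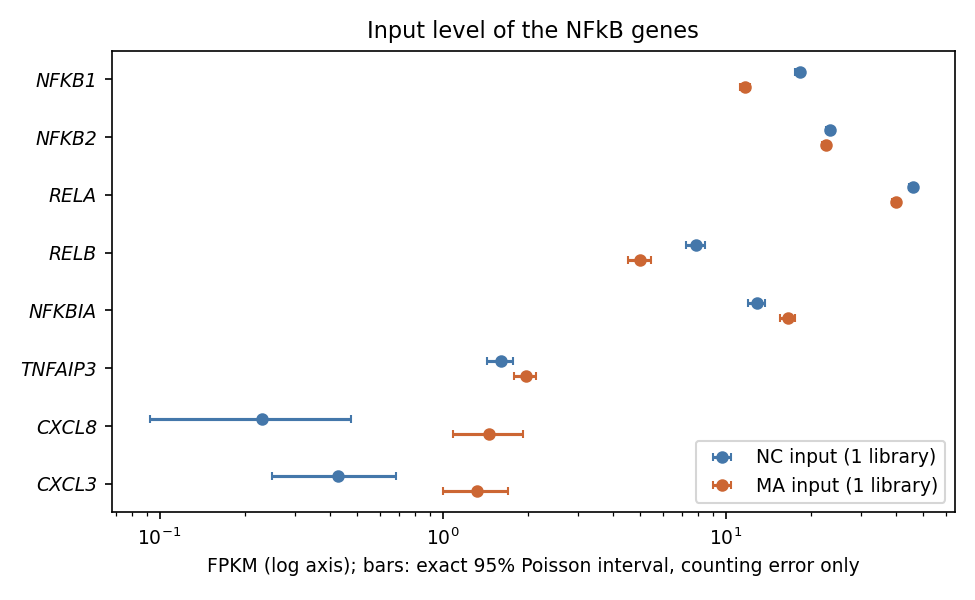
Input level of each gene in FPKM (log axis) in the NC and the MA library, 1 point per library, with bars for the exact 95% Poisson interval of the recovered reads (counting error only). RELA is highest at 45.8 FPKM in NC, NFKBIA lies above RELB in both libraries, and the chemokines are lowest with the widest bars.

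Among the subunits, RELA, which carries the main transactivation domain of the canonical p50:RELA dimer, had the highest level. RELA was at 45.8 FPKM in NC and 39.99 in MA, a log2 difference of -0.19. This is a ratio of 0.872 (95% interval 0.836 to 0.910) from 4190 reads in MA and 4274 in NC. NFKB2, the p100 and p52 gene of the non-canonical branch, was at 23.3 FPKM in NC and 22.7 in MA, a log2 difference of -0.04. Its ratio was 0.971 (0.928 to 1.02), so the libraries differed by less than counting error. The sign of NFKB2 turned after rescaling to TPM, at 0.034.

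NFKB1 and RELB stood lower with MA than RELA and NFKB2 did. NFKB1 was at 18.3 FPKM in NC and 11.7 in MA, a log2 difference of -0.60. Its ratio was 0.640 (0.606 to 0.677), from 2174 reads in MA and 3021 in NC. RELB, the partner of p52 in the non-canonical branch, was at 7.84 FPKM in NC and 4.98 in MA, a log2 difference of -0.56. Its ratio was 0.635 (0.563 to 0.716), and this interval overlaps that of NFKB1. Of all tested genes, 10.0% had a lower difference than NFKB1 and 11.4% a lower one than RELB. RELA, by contrast, had 30.9% of tested genes below it.

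NFKBIA and TNFAIP3, the feedback inhibitors among the 8 genes, were higher with MA by less than 2-fold. Other inhibitors of the pathway, given below, went in both directions. NFKBIA was at 12.9 FPKM in NC and 16.6 in MA, a log2 difference of 0.34. Its ratio was 1.29 (1.17 to 1.42), from 1077 reads in MA and 743 in NC. TNFAIP3 was at 1.60 FPKM in NC and 1.96 in MA, a log2 difference of 0.19. Its ratio was 1.23 (1.07 to 1.41), from 486 reads in MA and 353 in NC. These differences lie in the middle of the table: 62.6% of tested genes had a lower one than NFKBIA and 54.6% a lower one than TNFAIP3.

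The chemokines had the lowest levels and the highest ratios of the 8. CXCL8 was at 0.230 FPKM in NC and 1.46 in MA, which is 7 against 50 recovered reads and a ratio of 6.36 (2.87 to 16.6). CXCL3 was at 0.427 FPKM in NC and 1.32 in MA, which is 17 against 59 reads and a ratio of 3.09 (1.78 to 5.65). Both NC values lie below 1 FPKM, and only the MA library brought these genes over the minimum for testing, so they could appear here only as higher. Genes with as few reads also went the other way: CXCL16, a chemokine under 1 FPKM in both inputs, had 45 recovered reads in NC and 19 in MA, a log2 ratio of -1.41 (-2.27 to -0.61). The intervals of CXCL8 and CXCL3 overlap, so the counts do not separate the ratio of CXCL8 from that of CXCL3. RefSeq places RELA-DT over RELA, WAKMAR2 over TNFAIP3 and NFKB1-AS1 and 2 more noncoding genes over NFKB1, and whether the counting used strand is not given in the labels. Reads of CXCL3 are uncertain, since CXCL1 and CXCL2 are closely related genes, though their likeness in sequence was not measured here. Neither CXCL1 nor CXCL2 has a row in the gene table, and how reads that fit several genes were counted is not stated. PTPRC (CD45), an immune marker, had 0.081 FPKM in NC and 0.110 in MA. Of the 13 immune markers, 6 had a value, and their summed level was 90.1 FPKM in MA and 112 in NC, nearly all of it CD68. S100A8 was listed at 0 in NC and S100A9 in MA. The part of such cells in the chemokine levels was not tested.

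**Figure D2:**
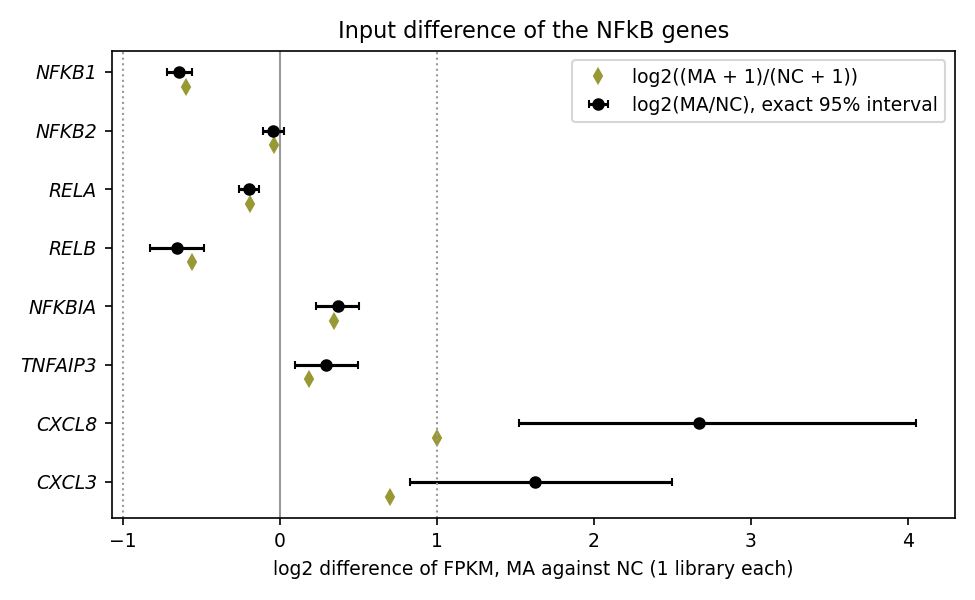
Difference between the MA and NC inputs for each gene, as the log2 ratio of FPKM with its exact 95% binomial interval (black, counting error only) and as the log2 difference with a pseudocount of 1 (diamonds), with dotted lines at 2-fold. NFKB1, RELA and RELB lie left of 0 and the inhibitors and chemokines right of it, with CXCL8 at a log2 ratio of 2.67 but a log2 difference of 1.00.

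The order of the levels was nearly the same in both inputs. In NC it ran RELA, NFKB2, NFKB1, NFKBIA, RELB, TNFAIP3, CXCL3 and CXCL8. Only the last pair had overlapping 95% Poisson intervals, 0.249 to 0.684 FPKM for CXCL3 and 0.0925 to 0.474 for CXCL8. In MA the order ran RELA, NFKB2, NFKBIA, NFKB1, RELB, TNFAIP3, CXCL8 and CXCL3. NFKBIA thus stood above NFKB1 in MA and below it in NC, with intervals that do not overlap in either library. In MA the intervals of TNFAIP3 and CXCL8 overlapped, and so did those of CXCL8 and CXCL3.

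The m6A peak lists gave 10 peaks of these genes in NC and 11 in MA. The NC list held 22067 peaks in all and the MA list 19929. Positions are on GRCh38.p13 and count from 1, and fold enrichment, RIP over input, is the authors' value for each peak. It is used here only to describe peaks within their own list, whose median was 3.57 in NC and 3.07 in MA. A peak had a partner when a peak of the other list overlapped its span, introns included, by at least 1 bp on the same strand. In NC 7 of the 10 peaks had a partner, against 73.8% of all NC peaks, and in MA 8 of the 11, against 79.7% of all MA peaks. These shares are close to those of the whole lists. Most peaks of these genes lay in the 3' UTR or in other exons, as in the lists as a whole: 5 of 10 in NC and 5 of 11 in MA were annotated as 3' UTR, where all peaks had 42.1% and 42.8%.

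TNFAIP3 carried the most enriched peak of the 8 genes in either list. In NC, a peak of 599 bp inside an exon (chromosome 6, 137878574 to 137879172) had a fold enrichment of 15.0, at percentile 99.5 of the NC list. Over the same stretch the MA list held 2 shorter exon peaks. They ran from 137878624 to 137878823 (200 bp, fold 4.33) and from 137878973 to 137879271 (299 bp, fold 5.50, percentile 87.8 of the MA list). Both overlap the NC peak by 200 bp. The 3' UTR peak of TNFAIP3 ran from 137881669 to 137881967 in NC (fold 5.00) and from 137881569 to 137881818 in MA (fold 6.67), with 150 bp in common. In MA the 3' UTR peak had the highest fold of the gene, and in NC the exon peak did. The gene as a whole had 353 recovered input reads in NC and 486 in MA.

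NFKBIA had a 3' UTR peak in both lists and a second peak in NC. The 3' UTR peak (chromosome 14, minus strand) ran from 35401805 to 35402576 in NC, with a fold of 5.14 at percentile 75.5 of its list. In MA it ran from 35401805 to 35402430 with a fold of 3.54, at percentile 61.3 of the MA list. A peak annotated as 5' UTR, from 35403741 to 35404700, was listed in NC only, with a fold of 2.50 and a false discovery rate of 0.000182 in the authors' deposited table. The peaks listed for NFKBIA covered 780 exonic bp in NC and 293 in MA.

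**Figure D3:**
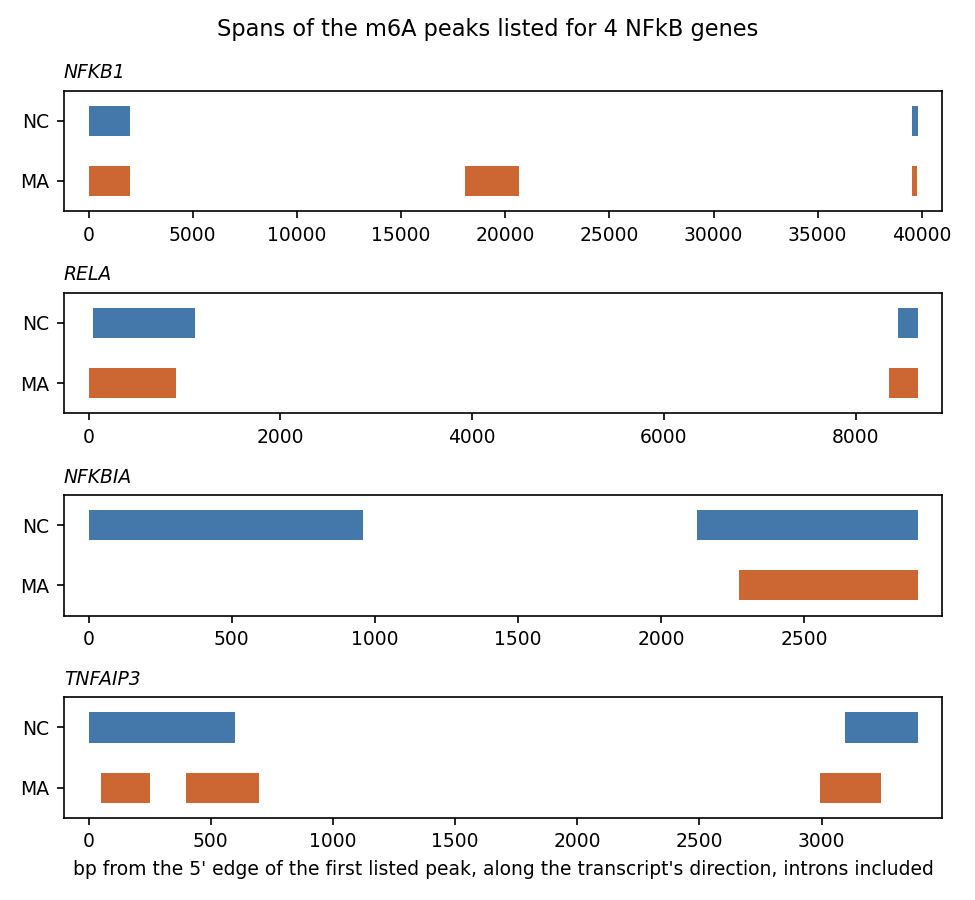
Spans of the peaks listed for the 4 genes with a peak in both lists, in bp from the 5' edge of the first listed peak along the transcript's direction, introns included; NC above and MA below in each panel. The middle NFKB1 peak appears in MA only, the first NFKBIA peak in NC only, and the wide exon peak of TNFAIP3 in NC faces a pair of shorter peaks in MA.

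Of the subunit genes, NFKB1 and RELA had peaks in both lists. NFKB1 had an exon peak with the same bounds in both (chromosome 4, 102576912 to 102578902, 150 exonic bp), with a fold of 1.62 in each list, at percentiles 2.33 of NC and 3.31 of MA. Its 3' UTR peak began at 102616459 in both lists and had a fold of 2.38 in NC and 3.27 in MA. A further exon peak, from 102594968 to 102597559, was listed in MA only, with a fold of 1.95. RELA had a 3' UTR peak (chromosome 11, minus strand, 65654300 to 65654500 in NC and to 65654599 in MA) with folds of 2.82 and 2.88. Its other peak was annotated as 5' UTR in NC (65661835 to 65662896, fold 1.78) and as start codon in MA (65662036 to 65662946, fold 1.67), and these spans shared 861 bp. The false discovery rates of both RELA peaks in MA, 0.0105 and 0.0117 in the authors' deposited table, were the highest among the peaks of the 8 genes.

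The other 4 genes had a peak in a single list each. RELB had a 3' UTR peak in NC only (chromosome 19, 45037601 to 45037897, fold 2.80). NFKB2 had a peak annotated as 5' UTR in MA only (chromosome 10, 102398508 to 102398658, 151 bp, fold 2.00), while the ratio of its input levels was 0.971. CXCL8 had an exon peak in NC only (chromosome 4, 73740716 to 73742002, 197 exonic bp, fold 4.00, above the median of the NC list). CXCL3 had a peak annotated as 3' UTR in MA only (chromosome 4, minus strand, 74037175 to 74038298, 196 exonic bp, fold 2.50). Thus 2 of the 8 genes had a peak only in NC and 2 only in MA, where 7.29% and 4.04% of all tested genes did, and 4 of 8 had one in both, where 76.0% did. The 8 were taken with presence in the peak lists as a condition, so 0 of them lacked a peak in both lists. Of the 10564 tested genes, 1341 did, and the shares therefore compare unlike sets. With 8 genes and 1 RIP library per condition these differences in share were not tested.

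In CXCL8 the peak was listed in the library with the lower transcript level, and in CXCL3 in the one with the higher level. CXCL8 was listed with a peak in NC, where 7 reads were recovered over the whole gene, and with none in MA, where 50 were. Of 536 genes within 1.5 times the NC level of CXCL8, 34.9% had a peak in the NC list. Of 976 genes within 1.5 times its MA level, 73.6% had a peak in the MA list. CXCL3 had its peak in MA, where 59 reads were recovered. Among genes near its levels, 54.3% of 676 had a peak in the NC list and 70.0% of 901 in the MA list. Of all tested genes, 83.3% had a peak in NC and 80.0% in MA.

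**Figure D4:**
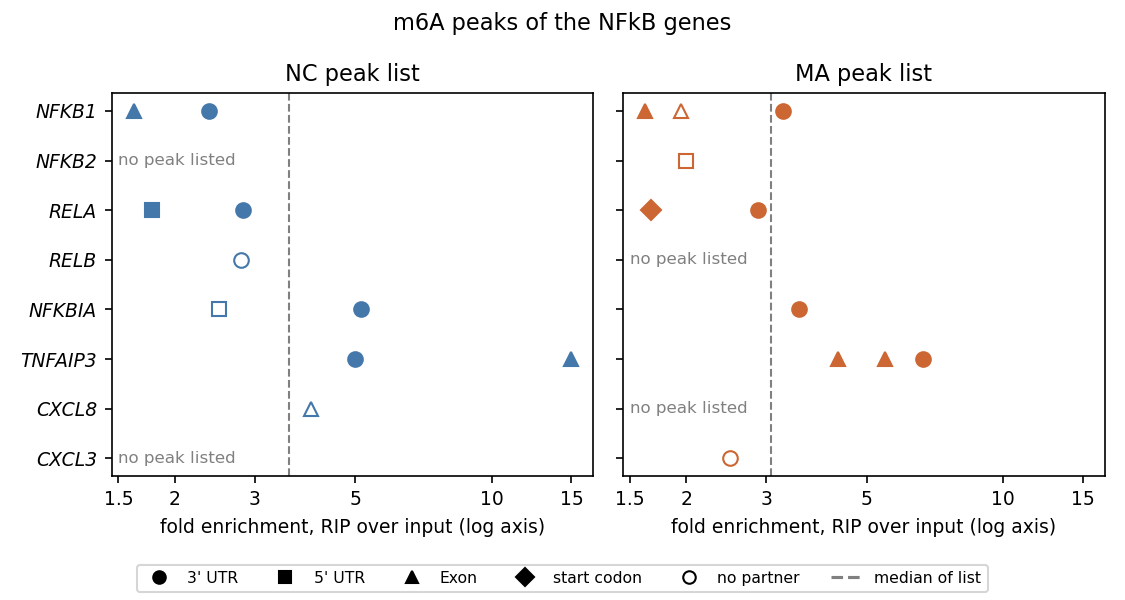
Fold enrichment (log axis) of each listed peak of the 8 genes in the NC list (left) and the MA list (right), by annotation; filled symbols have a partner in the other list, open symbols have none, and the dashed line is the median of all peaks of that list. The exon peak of TNFAIP3 at 15.0 stands apart in NC, and in each list 2 of the genes have no peak.

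The wider pathway was described from lists by role: subunits, inhibitors, kinases, adaptors, receptors, chemokines and targets. Together these lists held 67 tested genes, each counted once and the 8 genes included. Of the 67, 10 were at least 2-fold higher in the MA input, CXCL8 among them, and 4 at least 2-fold lower. These are 14.9% and 5.97%, beside 10.3% and 2.98% of all tested genes. With the MA values rescaled to a median difference of 0, 4 were higher (5.97%, against 7.00% of all tested genes) and 4 lower (against 4.15%), so the share of higher genes then lay below that of the whole table. With a pseudocount of 5, 1 was higher (1.49%, against 2.58% of all tested genes) and 3 were lower (4.48%, against 1.46%). As TPM, 13 were higher (19.4%, against 17.0%), CXCL8 and CXCL3 among them, and 4 lower (5.97%, against 2.98%). REL, the subunit that is not among the 8, was higher with MA. REL (c-Rel) was at 1.59 FPKM in NC and 5.25 in MA, a log2 difference of 1.27 (0.64 with a pseudocount of 5), from 468 and 1733 reads. It had 6 peaks in NC and 5 in MA, more than any of the other subunits.

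Upstream of the subunits, single genes differed in both directions. Of the kinases and their partners, 1 of 11 tested genes was higher by 2-fold and none was lower, with a median of 0.09 that was -0.02 after rescaling to a median difference of 0 and 0.46 among the 6 genes at 5 FPKM or more. The gene was TAB2, an adaptor of the kinase TAK1, at 4.23 FPKM in NC and 12.4 in MA (1.36, or 0.92 with a pseudocount of 5). TBK1 (4.97 and 9.65 FPKM, 0.83) and MAP3K7, which encodes TAK1 (5.61 and 9.71, 0.70), followed. Of 18 adaptors, 4 were higher and 2 lower, with a median of -0.07 that moved to 0.00053 after rescaling to TPM. After rescaling to a median difference of 0, 1 adaptor was higher and 2 were lower. BCL10, which links CARD proteins to the protease MALT1, was at 2.92 FPKM in NC and 9.69 in MA (1.45, or 0.89 with a pseudocount of 5). CARD10, its partner outside immune cells, was at 10.7 in NC and 3.35 in MA (-1.42, or -0.91 with a pseudocount of 5). IRAK1, a kinase of Toll-like and interleukin 1 receptor signalling, was at 83.6 in NC and 30.5 in MA (-1.42).

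Among 16 tested inhibitors the median was 0.17, or -0.10 over the 11 at 5 FPKM or more, and 1 was higher by 2-fold and none lower. Of the 16, 9 had a log2 difference above 0 and 7 one below 0. Of the other tested IkB genes, relatives of NFKBIA, NFKBIE (36.0 FPKM in NC and 22.2 in MA, -0.67) was lower. NFKBIZ (8.70 and 5.52, -0.57) and NFKBIB (23.3 and 16.6, -0.46) were lower too, and NFKBID (0.921 and 1.40, 0.32) was higher. ITCH, a ubiquitin ligase that works with A20, was at 6.31 FPKM in NC and 14.0 in MA (1.04, or 0.91 after rescaling to a median difference of 0). TAX1BP1, another A20 partner, was at 65.7 and 112 FPKM (0.76), and the deubiquitinase OTUD7B at 11.2 and 6.36 (-0.73). Of 6 tested receptors, 1 was higher by 2-fold and none lower, with a median of 0.37. TNFRSF12A, the receptor of the cytokine TWEAK, was at 45.0 FPKM in NC and 116 in MA (1.35). LTBR, a receptor of the non-canonical branch, was at 106 and 61.4 (-0.77), and TLR6 at 1.82 and 3.32 (0.62).

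Of 10 tested targets other than the chemokines, 1 was higher by 2-fold and 2 lower, with a median of -0.10. GADD45B, a stress-induced gene, was at 8.03 FPKM in NC and 18.5 in MA (1.11, or 0.98 after rescaling to a median difference of 0). CD83 was at 26.7 and 10.5 (-1.27), and CCND1, cyclin D1, at 94.1 and 40.3 (-1.20). Of 16 chemokine genes, 9 had a value and only CXCL8 and CXCL3 reached 1 FPKM. Of the targets under 1 FPKM, ICAM1, an adhesion molecule, had 37 recovered reads in NC and 4 in MA, a log2 ratio of -3.38 (-5.33 to -1.90). PLAU, the urokinase gene, had 19 and 4, a log2 ratio of -2.42 (-4.43 to -0.83). Of 6 chemokine receptors, CXCR2 alone had a value, 0.00810 FPKM in MA and listed at 0 in NC.

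**Figure D5:**
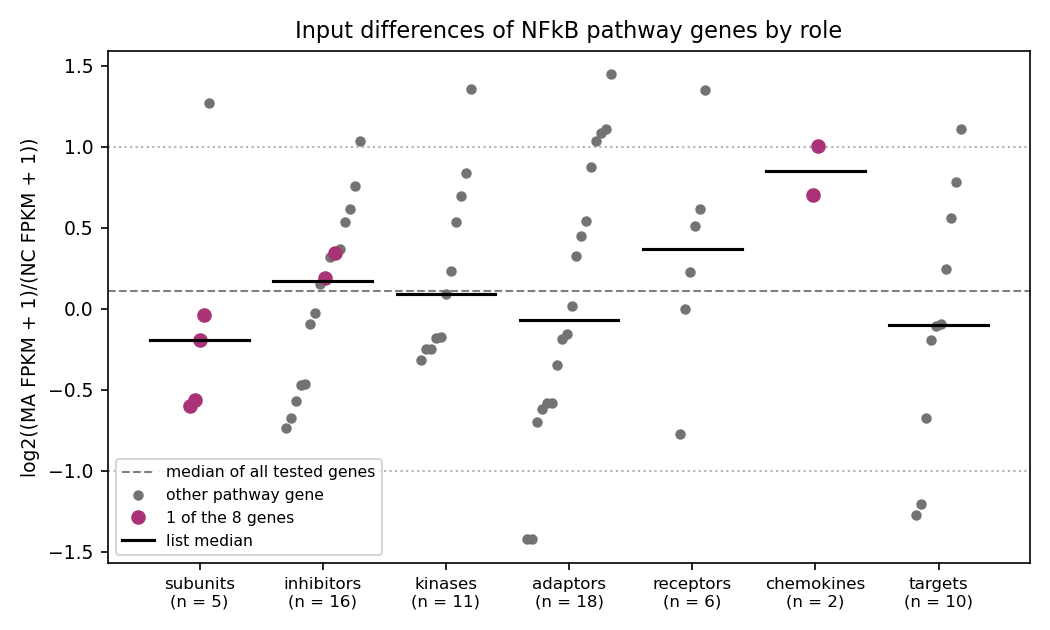
Log2 difference of each tested pathway gene (points, the 8 genes in purple) by role, with the median of each list (black line), the median of all tested genes (dashed line, 0.11) and 2-fold (dotted lines). REL stands above the other subunits at 1.27, and the adaptors spread from -1.42 to 1.45.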

How the data were processed

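Gene values are FPKM that the authors deposited for the input libraries, and the values and the m6A peak lists are on GRCh38.p13, per the submitters' processing notes. The tools they list are ChIPseeker, deepTools, HISAT, HISAT2 and Trimmomatic. Which read counter and peak caller were run, and with what cut-offs, is not stated there. Each peak carries a fold enrichment (ratio of RIP over input), a p-value and a false discovery rate that the authors computed, per the file headers, and the lowest listed fold is 1.5. Rows that repeated a peak were dropped (132 in NC, 99 in MA), and starts were raised by 1. The peak lists give no exonic blocks, and no genome was used, so no sequence under a peak was read.

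Input levels were compared as log2 FPKM after adding 1, MA minus NC, in genes that reached 1 FPKM in either input. Library totals were recovered from the FPKM values: the NC total kept gave the RefSeq span of 157 genes, against 10 at the next best. Whole reads and a whole length were found for 98.9% of the 13055 genes with values in both inputs (tolerance 0.01 bp). On simulated data of 3000 genes, 84.5% of resolved genes had their true reads and 99.4% these or a whole fraction. The simulation took its genes, lengths and library totals from the recovered values, so it cannot check those lengths or totals. The groups are those of the labels. The 8 genes and the role lists were chosen with earlier results of these data known. Named genes are the 8, and in each role list the 3 tested genes with the largest absolute difference. CXCL16, ICAM1, PLAU, PTPRC, S100A8, S100A9, CD68, LUM, MITF, PMEL and CXCR2 were named after their values were seen. So were NFKBIB, NFKBID, NFKBIE, NFKBIZ, COL1A1, DCN and PDGFRB. Alternatives were pseudocounts of 0.1 and 5, rescaling to a median difference of 0 or to TPM, filters on low values, and stricter overlap or fold of peaks. Python 3.11.15, numpy 2.4.6, pandas 2.3.3 and scipy 1.17.1 were used.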

Additional observations from a re-analysis of the deposited data

How the results depend on the processing

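No paired analysis was possible because each condition had 1 library of each kind and the labels give no pairing. For NFKB1 the log2 difference was -0.48 with a pseudocount of 5 and -0.72 after rescaling to a median difference of 0, and for RELB it was -0.36 with a pseudocount of 5. The same rescaling gave RELA -0.32 and NFKB2 -0.17, and rescaling to TPM gave -0.12 and 0.034. NFKB2 as TPM was the 1 of 32 recomputed differences that changed sign. The values above moved by more than the wider arm of the gene's counting interval. That arm is wide for the chemokines, where CXCL8 ran from 0.31 to 2.24 and CXCL3 from 0.22 to 1.43 over pseudocounts of 5 and 0.1. Genes higher by 2-fold numbered 1801 with a pseudocount of 0.1, 273 with one of 5 and 1793 as TPM, and genes lower by 2-fold 154 with a pseudocount of 5. Of the 8 genes, 2 were higher by 2-fold with a pseudocount of 0.1 and as TPM. The number was 0 with a pseudocount of 5, after rescaling to a median difference of 0, and among genes at 5 FPKM or more. The median of the chemokine list was 1.84 with a pseudocount of 0.1, 0.26 with one of 5, 1.37 as TPM and 0.041 with no filter on low values (9 genes). Peaks with a partner made up 46.5% of NC and 51.5% of MA peaks with an overlap of 50% of both. The NC share was 70.5% at a fold of 2 or more. For peaks within 1 exon, an alternative chosen after seeing the data, the shares were 59.6% and 69.6%, and 4 of 5 NC and 5 of 6 MA peaks of the 8 genes had a partner. An overlap within exonic blocks was not run, because the lists give no blocks. The chemokine ratios rest on 7 to 59 recovered reads. These are the smallest whole numbers that fit, so the true reads may be a whole multiple of them.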

Other observations

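Of all tested genes, 83.3% had a peak in NC, 80.0% in MA and 76.0% in both, and the pathway lists, NFKBIA and TNFAIP3 included, are given beside these shares with no test. Of 18 tested adaptors, 17 had a peak in NC, 14 in MA and 14 in both. Of 16 inhibitors the numbers were 13, 12 and 12, and of 11 kinases 10, 9 and 8. Of all tested genes, 7.29% had a peak in NC only and 4.04% in MA only. IKBKE, a kinase related to TBK1, had 2 peaks in NC and 0 in MA (input log2 difference -0.25). So did SHARPIN (-0.35), an accessory subunit of the linear ubiquitin ligase. RNF31 (-0.58), the catalytic subunit of the same ligase, had 1 peak in NC and 0 in MA, while RBCK1, the third subunit, had 3 in each list. NKIRAS2 (-0.10), IKBKG (-0.17) and CARD10 (-1.42) also had 1 in NC and 0 in MA. CHUK (0.54), which encodes the IkB kinase subunit alpha, had 0 in NC and 1 in MA, as did the target SOD2 (-0.19). IRAK1, at 83.6 FPKM in NC, had no peak in either list. CFLAR had 17 peaks in NC and 15 in MA. These genes were named after their values were seen, and with 1 RIP library per condition none of these differences was tested.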
